A study of Homo sapiens with 9 samples.

Results

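The peroxisome proliferator-activated receptors (PPARs) and 5 of their established target genes were followed in 22Rv1 cells, a human prostate carcinoma line, after knockdown of CHD9. The 8 genes are the receptors PPARA, PPARD and PPARG and the targets PDK4, CPT1A, ACAA2, ANGPTL4 and PLIN2. They were taken by symbol from the 67071 genes of the count table, and each matched 1 line. Of the 8, 7 passed the low-count filter that left 16855 genes for testing. PPARG did not.

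RNA sequencing was done on 9 libraries. Control cells (shGFP, genotype WT) expressed a hairpin RNA that targets GFP, and cells of genotype CHD9 knockdown expressed CHD9 shRNA No.1 (hairpin 1) or No.2 (hairpin 2), with 3 libraries in each group. All came from a single line kept in RPMI 1640 with serum and antibiotics. How the hairpins were delivered, and whether clones were picked, is not given in the sources used here, and the labels do not call the replicates separate cultures, so the spread behind each p-value is that of these libraries and may be technical.

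PPARs are nuclear receptors that bind fatty acids and their derivatives. They pair with a retinoid X receptor (RXR) on DNA, at direct repeats of the hexamer AGGTCA spaced by a single base, and recruit coactivators when a ligand is bound and corepressors when it is not. PPAR alpha drives fatty acid oxidation and ketone production, most of all in liver, PPAR delta acts in nearly all tissues, and PPAR gamma is the master regulator of fat cells. CHD9, a chromodomain helicase, has been described as a cofactor that binds PPAR alpha, which is why this gene set bears on the knockdown.

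Libraries held 18911142 to 31968602 counts. All 10 luminal prostate markers, among them KLK3, KLK2 and HOXB13, exceeded 1 CPM (the usual counts-per-million unit, on scaled library totals) as a mean over the 9 libraries, the measure used for all marker lists here. Their summed level was 1980 to 2020 CPM in shGFP, 2280 to 2310 with hairpin 1 and 2150 to 2170 with hairpin 2. The markers did not all move with the sum. FOXA1 averaged 459 CPM in shGFP but 369 and 382 with hairpins 1 and 2. KRT8 had 307.5 CPM in shGFP, 332.7 with hairpin 1 and 288.6 with hairpin 2. Of 7 adipocyte markers, ADIPOQ, LEP and FABP4 were listed at 0 in every library and LIPE alone exceeded 1 CPM. Of 8 hepatocyte markers ALB alone did, and the sum over that list was 657 to 677 CPM in shGFP, 119 to 131 with hairpin 1 and 179 to 182 with hairpin 2. TTR, another of them, averaged 1.73 CPM in shGFP but 0.481 and 0.421 CPM with hairpins 1 and 2. MB alone exceeded 1 CPM among 6 myocyte markers (57.8 to 60.2, 46.6 to 49.3 and 54.6 to 56.2 CPM in sum). COL1A1, COL3A1 and PDGFRB did so among 6 fibroblast markers (9 to 9.66, 11.1 to 12.5 and 10.6 to 13.4). COL1A1 and COL3A1 rose, PDGFRB did not pass (log2 fold change -0.33), and LUM fell from a mean of 0.983 CPM to 0.0603 and 0.0627. No leukocyte marker exceeded 1 CPM, with sums of at most 1.26 CPM. All 9 libraries come from a single line, so these lists show transcripts of that line and do not count cells of other tissues. The part of these shifts in the results was not tested. In bulk samples, fewer cells of the line expressing a marker and less of its RNA per cell cannot be told apart. CHD9 itself had 22.2 ± 1.42 CPM in shGFP (SD, n = 3 here and for each group mean), 15.4 ± 1.07 with hairpin 1 and 18.8 ± 0.465 with hairpin 2, so the hairpins left 0.695 and 0.847 of the control level. The fall with hairpin 2 (log2 fold change -0.24, adjusted p = 0.00596) did not pass without shGFP replicate 3 (-0.20, adjusted p = 0.0542).

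Of the 7 members tested, PPARA, PDK4, CPT1A and PLIN2 rose, ACAA2 and ANGPTL4 fell, and PPARD did not pass, when the average of both hairpins was set against shGFP. A gene was called at an adjusted p under 0.05 in the edgeR quasi-likelihood test. Against these 6 calls in 7 stand calls for 45.5% of all genes tested, 22.3% higher and 23.2% lower. Changes over 1.5-fold were called for PLIN2 and ACAA2, beside 8.10% of all genes. In 6 of the 7 all knockdown libraries lay on one side of all shGFP libraries, which held for 31.7% of genes. With hairpin 1 alone 6 of 7 were called (47.3% of all genes), 2 of them over 1.5-fold (11.0%), and in all 7 the libraries did not overlap with shGFP (53.9%). With hairpin 2 alone 5 of 7 were called (35.7%), none over 1.5-fold (6.11%), and 6 of 7 did not overlap (44.1%). The 5 targets were each called in the same direction with both hairpins, as were 26.8% of all genes. Both hairpins were compared with the same 3 shGFP libraries. The median log2 fold change of the 7 was 0.25, against 0.0014 over all genes, and their median absolute log2 fold change was 0.32, against 0.17.

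**Figure D1:**
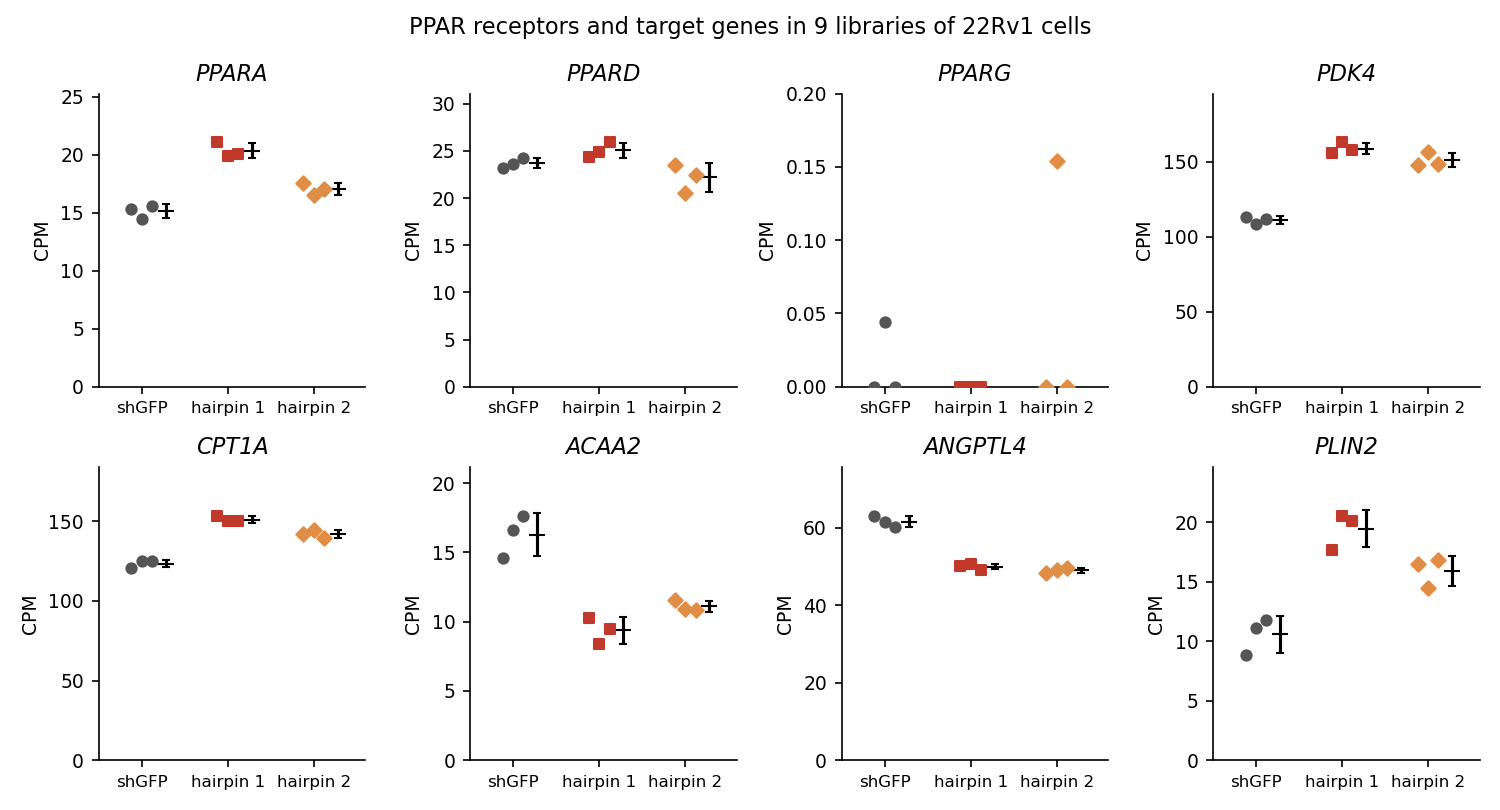
Expression of the 8 genes in CPM (vertical axes, from 0) in each of 9 libraries, by group, where a point is a library and the bar beside the points is the mean and SD of 3. PDK4, CPT1A, PLIN2 and PPARA lie higher in all 6 knockdown libraries than in the shGFP libraries, ACAA2 and ANGPTL4 lie lower, and PPARG has counts in 2 libraries alone.

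PPARA (ENSG00000186951.16, GRCh38 chromosome 22, 46150521 to 46243756, plus strand) encodes PPAR alpha. The shGFP libraries had 15.3, 14.4 and 15.6 CPM, those with hairpin 1 had 21.1, 19.9 and 20.1, and those with hairpin 2 had 17.5, 16.6 and 17.1. The 3 groups did not overlap, and hairpin 2 lay between the others. PPARA rose by 0.43 on the log2 scale with hairpin 1 (SE 0.073, adjusted p = 3.37e-06), a 1.34-fold change. With hairpin 2 the log2 fold change was 0.17 (95% confidence interval 0.023 to 0.32) and did not pass (adjusted p = 0.0643), although its 3 libraries were all above the 3 shGFP libraries. The mean of both hairpins passed (0.30, SE 0.064, adjusted p = 0.000134).

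PPARD (ENSG00000112033.14, chromosome 6, 35342558 to 35428191, plus strand), which encodes PPAR delta, had 23.2, 23.7 and 24.2 CPM in shGFP. There were 24.4, 24.9 and 25.9 CPM with hairpin 1 and 23.5, 20.6 and 22.5 with hairpin 2. Hairpin 1 libraries lay above and hairpin 2 libraries mostly below shGFP, by amounts close to the spread within groups. Neither log2 fold change passed, at 0.081 for hairpin 1 (interval -0.049 to 0.21, adjusted p = 0.32) and -0.10 for hairpin 2 (interval -0.23 to 0.028, adjusted p = 0.231). After correction for GC content and transcript length, hairpin 2 passed (-0.19, adjusted p = 0.0168) and hairpin 1 changed sign without passing (-0.075, adjusted p = 0.354). The mean of both hairpins, -0.011, just passed after that correction (-0.13, adjusted p = 0.0492).

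PPARG (ENSG00000132170.22, chromosome 3, 12287368 to 12434356, plus strand), the fat cell receptor, had 1 count in shGFP replicate 2, 5 counts in hairpin 2 replicate 2 and 0 in the other 7 libraries. A count of 0 allows up to 3 counts, 0.112 to 0.158 CPM in the libraries listed at 0. Summed over 3 libraries the level was 0.0147 CPM in shGFP (exact Poisson interval 0.000373 to 0.0822), 0 with hairpin 1 (up to 0.0531) and 0.0634 with hairpin 2 (0.0206 to 0.148). These intervals cover counting error only. No change was tested at this depth. Some genes that every cell uses are also listed at or near 0 in this table, such as TUBB and RPS18 with 0 counts and POLR2A with 10 over 9 libraries, examples chosen after their values were seen. A low listing therefore may not measure low expression.

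The targets fall into fuel choice (PDK4), fatty acid entry into mitochondria (CPT1A), the last step of oxidation (ACAA2), a secreted inhibitor of lipoprotein lipase (ANGPTL4) and the lipid droplet coat (PLIN2). Promoters of the 3 that changed most are printed for reference, as RefSeq gives them on GRCh38.p14. Each runs 5′ to 3′ from 250 bases before to 50 after a transcription start of the gene, and all 3 are read from the minus strand. Capitals mark the single stretch that matches the PPAR direct repeat, AGGTCA, any base, AGGTCA, with at most 2 mismatches in its 12 fixed bases on either strand.
PLIN2, chr9:19127443-19127742: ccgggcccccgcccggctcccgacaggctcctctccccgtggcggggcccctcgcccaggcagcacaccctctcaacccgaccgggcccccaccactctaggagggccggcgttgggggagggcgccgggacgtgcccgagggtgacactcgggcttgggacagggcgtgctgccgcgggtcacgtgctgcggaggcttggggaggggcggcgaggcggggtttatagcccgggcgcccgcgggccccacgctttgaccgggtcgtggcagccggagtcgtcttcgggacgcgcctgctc
ACAA2, chr18:49813484-49813783: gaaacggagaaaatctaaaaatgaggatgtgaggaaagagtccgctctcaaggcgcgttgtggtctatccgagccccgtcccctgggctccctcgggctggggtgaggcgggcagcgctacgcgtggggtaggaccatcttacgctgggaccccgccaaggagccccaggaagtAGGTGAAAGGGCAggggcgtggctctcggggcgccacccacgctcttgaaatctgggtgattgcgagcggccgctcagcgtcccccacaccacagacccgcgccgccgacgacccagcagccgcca
PDK4, chr7:95596467-95596766: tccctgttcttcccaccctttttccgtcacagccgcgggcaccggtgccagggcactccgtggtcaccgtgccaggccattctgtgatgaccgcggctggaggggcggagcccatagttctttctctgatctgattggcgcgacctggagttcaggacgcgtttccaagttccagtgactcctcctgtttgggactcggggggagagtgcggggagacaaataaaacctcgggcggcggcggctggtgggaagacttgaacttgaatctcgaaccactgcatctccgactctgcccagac

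A match of that kind was found in the ACAA2 window, 76 bases before the start and on the sense strand, and in no window of the other 7 members. It is present in 2.97% of the 35116 promoters of that length. The closest stretches in PDK4 and ANGPTL4 had 4 mismatches, those in CPT1A and PLIN2 had 5. The AGGTCA hexamer alone, which the repeat contains, was in 13.8% of promoters and in none of the windows of the 5 targets. A match is a description of letters. PPAR sites outside these short windows were not searched.

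PDK4 (ENSG00000004799.8, chromosome 7, 95583499 to 95596491, minus strand) encodes a kinase that switches off pyruvate dehydrogenase and so spares glucose when fatty acids are burned. Its level was 113, 108 and 112 CPM in shGFP. It was 156, 163 and 158 with hairpin 1 and 148, 156 and 149 with hairpin 2. Both knockdown groups lay well above shGFP and overlapped each other. PDK4 rose by 0.52 on the log2 scale with hairpin 1 (SE 0.033, adjusted p = 1.06e-17) and by 0.45 with hairpin 2 (SE 0.032, adjusted p = 2.66e-15), or 1.43-fold and 1.36-fold. After the GC and length correction PDK4 also exceeded 1.5-fold, at 0.72 on the log2 scale with hairpin 1 and 0.63 for the mean of both. For the mean of both, 15.0% of all genes tested had a larger change.

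CPT1A (ENSG00000110090.13, chromosome 11, 68754620 to 68844410, minus strand) encodes the enzyme that commits long-chain fatty acids to mitochondrial import. The shGFP libraries had 121, 125 and 125 CPM, against 153, 150 and 149.9 with hairpin 1 and 142, 144 and 139.5 with hairpin 2. No library of one group fell within the range of another. The rise was 0.29 on the log2 scale with hairpin 1 (SE 0.031, adjusted p = 1.12e-10) and 0.20 with hairpin 2 (SE 0.031, adjusted p = 8.56e-07). These are 1.22-fold and 1.15-fold, and 36.8% of all genes had a larger change for the mean of both.

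PLIN2 (ENSG00000147872.10, chromosome 9, 19108375 to 19149290, minus strand) encodes perilipin 2, a protein that coats lipid droplets and is stabilised by them. The shGFP libraries had 8.84, 11.1 and 11.8 CPM, the hairpin 1 libraries 17.7, 20.5 and 20.1, and the hairpin 2 libraries 16.5, 14.5 and 16.8. Every knockdown library was above every control library, with hairpin 1 highest. The log2 rise was 0.87 with hairpin 1 (SE 0.090, adjusted p = 4.61e-11) and 0.57 with hairpin 2 (SE 0.091, adjusted p = 2.36e-06), or 1.82-fold and 1.48-fold. Among all genes 6.78% had a larger change for the mean of both.

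ACAA2 (ENSG00000167315.18, chromosome 18, 49782167 to 49813960, minus strand) encodes the mitochondrial thiolase that cuts acetyl-CoA from the fatty acid chain. In shGFP there were 14.6, 16.6 and 17.6 CPM, which compares with 10.3, 8.36 and 9.47 for hairpin 1 and 11.5, 10.9 and 10.9 for hairpin 2. The lowest shGFP library was above all 6 knockdown libraries. ACAA2 fell by 0.81 on the log2 scale with hairpin 1 (SE 0.091, adjusted p = 4.13e-10) and by 0.56 with hairpin 2 (SE 0.087, adjusted p = 1.12e-06), leaving 0.572 and 0.678 of the control level. A larger change was seen in 7.67% of genes. Another annotated coding gene shares 385 bases of its exons and had 0 counts.

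ANGPTL4 (ENSG00000167772.12, chromosome 19, 8363289 to 8374373, plus strand) encodes a secreted protein that restrains lipoprotein lipase and is also induced by low oxygen. Levels in shGFP were 63.1, 61.6 and 60.2 CPM. Hairpin 1 libraries had 50.2, 50.6 and 49.2 CPM and hairpin 2 libraries 48.3, 49.2 and 49.7. The knockdown groups overlapped each other and lay below shGFP. The log2 fold change was -0.30 for hairpin 1 (SE 0.043, adjusted p = 1.09e-07) and -0.33 for hairpin 2 (SE 0.042, adjusted p = 2.46e-08), or 0.812 and 0.796 of the control level. After the GC and length correction the value for hairpin 1 was -0.49. An antisense gene, RAB11B-AS1, overlaps an exon of ANGPTL4 by 1 base.

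**Figure D2:**
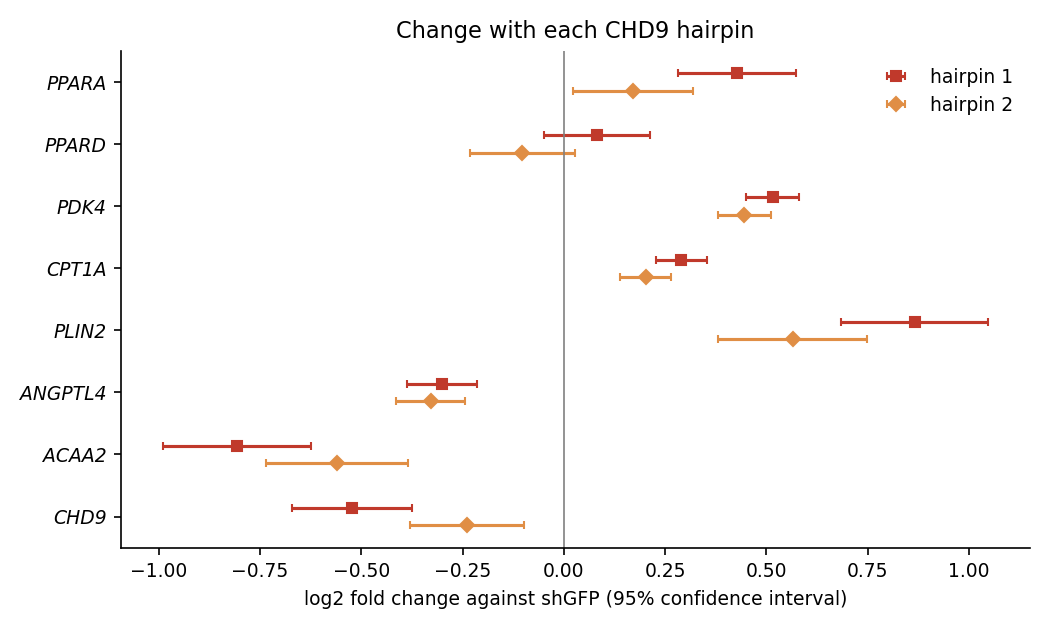
Log2 fold change against shGFP (horizontal axis) for the 7 members tested and CHD9, with hairpin 1 (squares) and hairpin 2 (diamonds), where bars are 95% confidence intervals of the edgeR fit. PDK4, CPT1A and PLIN2 lie right of 0 and ANGPTL4 and ACAA2 left of 0 with both hairpins, and both PPARD intervals include 0.

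The hairpins were also compared with each other. PPARA was higher with hairpin 1 than with hairpin 2, with a log2 difference of 0.26 (SE 0.070, adjusted p = 0.00403), and so was PLIN2, with 0.30 (SE 0.083, adjusted p = 0.00435). PPARD (0.18, adjusted p = 0.0259), CPT1A (0.087, adjusted p = 0.0245) and ACAA2 (-0.25, adjusted p = 0.0437) also passed. PDK4 (0.070, interval 0.0077 to 0.13, adjusted p = 0.086) and ANGPTL4 (0.028, interval -0.060 to 0.12, adjusted p = 0.692) did not pass. Thus 5 of 7 were called, beside 29.2% of all genes, and 5 of 7 did not overlap, beside 39.6%. In PPARA, PDK4, CPT1A, PLIN2 and ACAA2 the larger departure from shGFP was with hairpin 1. In ANGPTL4 (-0.33 with hairpin 2, -0.30 with hairpin 1) and PPARD (-0.10 and 0.081, neither called) it was with hairpin 2. Hairpin 1 also left less CHD9, and against shGFP it had 47.3% of all genes called, beside 35.7% with hairpin 2. A link of these changes to the CHD9 level was not tested.

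PPARA passed this test under every alternative, and each of the other 4 calls was lost without at least 1 library. PLIN2 was lost without hairpin 2 replicate 2 (0.23, adjusted p = 0.0656). PPARD was lost without hairpin 1 replicates 2 (0.19, adjusted p = 0.0502) or 3 (0.16, adjusted p = 0.124) and without hairpin 2 replicate 2 (0.12, adjusted p = 0.212). CPT1A was lost without hairpin 1 replicate 1 (0.072, adjusted p = 0.131) and hairpin 2 replicates 1 (0.082, adjusted p = 0.0545) or 3 (0.076, adjusted p = 0.0858). ACAA2 was lost without any of 6 libraries, shGFP replicate 2, hairpin 1 replicates 2 and 3 and all 3 of hairpin 2, at values of -0.26 to -0.17. The DESeq2 Wald test lost ACAA2 (adjusted p = 0.0793) and PPARD (adjusted p = 0.0596), and voom with limma lost ACAA2 (adjusted p = 0.0527). Without the low-count filter the edgeR test lost ACAA2 (adjusted p = 0.0628) and CPT1A (adjusted p = 0.0639). PDK4 passed without hairpin 2 replicate 2 (0.098, adjusted p = 0.0352). It also passed with the GC and length correction (0.17, adjusted p = 1.87e-06), under which PPARD (0.11), CPT1A (0.062) and ACAA2 (-0.23) were lost.

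Levels of different genes can be compared per length only, as CPM per kb of merged exons. In shGFP ANGPTL4 (24.8 ± 0.580) and PDK4 (24.6 ± 0.539) stood highest and did not differ beyond their spread. CPT1A followed at 18.8 ± 0.376, PPARD at 5.32 ± 0.116, ACAA2 at 3.21 ± 0.306, PLIN2 at 2.08 ± 0.306 and PPARA at 1.14 ± 0.0462 (SD, n = 3 each), each step larger than those spreads. PDK4 and ANGPTL4 exceeded 88.0% and 88.1% of genes tested with a known length, PPARA 28.5%. With hairpin 1 the order changed: PDK4 reached 35.1 ± 0.818 and ANGPTL4 fell below CPT1A (20.1 ± 0.299 and 23.0 ± 0.299), and PLIN2 (3.83 ± 0.302) stood above ACAA2 (1.85 ± 0.189). The exon length of PPARA, 13219 bases over all its annotated transcripts, is the longest of the 8, and a shorter main transcript would raise its level on this scale.

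**Figure D3:**
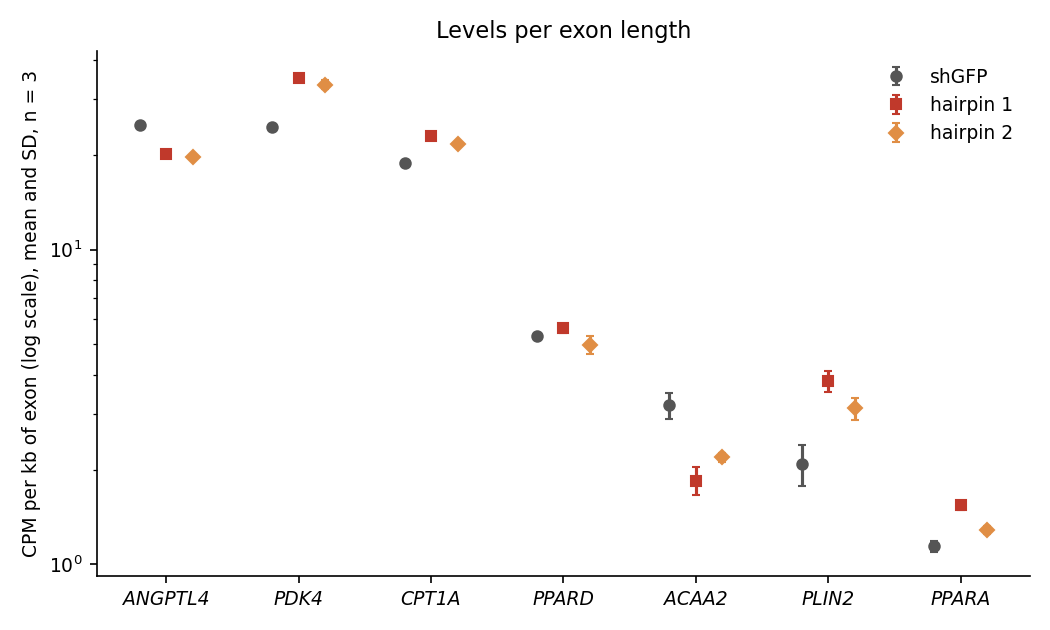
Mean level in CPM per kb of exon (vertical axis, log scale) of the 7 members tested in the 3 groups, with SD bars of 3 libraries, ordered by the shGFP level. ANGPTL4, PDK4 and CPT1A lie above 18 in every group, and PLIN2 and ACAA2 swap places between shGFP and the knockdown groups.

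Members were set beside the other genes of their families, from a list that overlaps those given further on. Perilipins rose as far as they could be tested. PLIN5, a lipid droplet protein of oxidative tissues, stood at 1.055 ± 0.277 CPM in shGFP, 4.25 ± 0.190 (hairpin 1) and 2.79 ± 0.348 (hairpin 2), a mean log2 rise of 1.69 (SE 0.190, adjusted p = 4.19e-10). PLIN4, at 0.355 ± 0.154, 1.36 ± 0.101 and 1.26 ± 0.532 CPM, rose by 1.94 (SE 0.345, adjusted p = 7.96e-06), on 6 to 54 counts a library. PLIN3 rose by 0.26 from 42.2 ± 1.44 CPM. PLIN1, the fat cell perilipin, averaged 0.171 CPM in shGFP and was not tested.

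Pyruvate dehydrogenase kinases other than PDK4 moved less. PDK3 rose by 0.26 for the mean of both hairpins, with 0.12 (not called) for hairpin 1 and 0.39 (called) for hairpin 2, while PDK1 (0.026) and PDK2 (0.052) did not pass. CPT1C, the brain form of carnitine palmitoyltransferase, rose by 0.22, and CPT1B, the muscle form, had a log2 fold change of 0.69 at 0.389 CPM in shGFP and did not pass. Among thiolases ACAA2 fell most. ACAT2, the cytosolic thiolase of cholesterol synthesis, fell by 0.27. HADHB, the beta subunit of the trifunctional protein, fell by 0.081 and was called with neither hairpin alone. ACAT1 rose by 0.13, and ACAA1, the peroxisomal form, had 0.056 and did not pass. In the families together 6 of 13 genes tested rose, 3 fell and 4 did not pass, with a median log2 fold change of 0.13. That is 69.2% called, beside 45.5% of all genes.

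**Figure D4:**
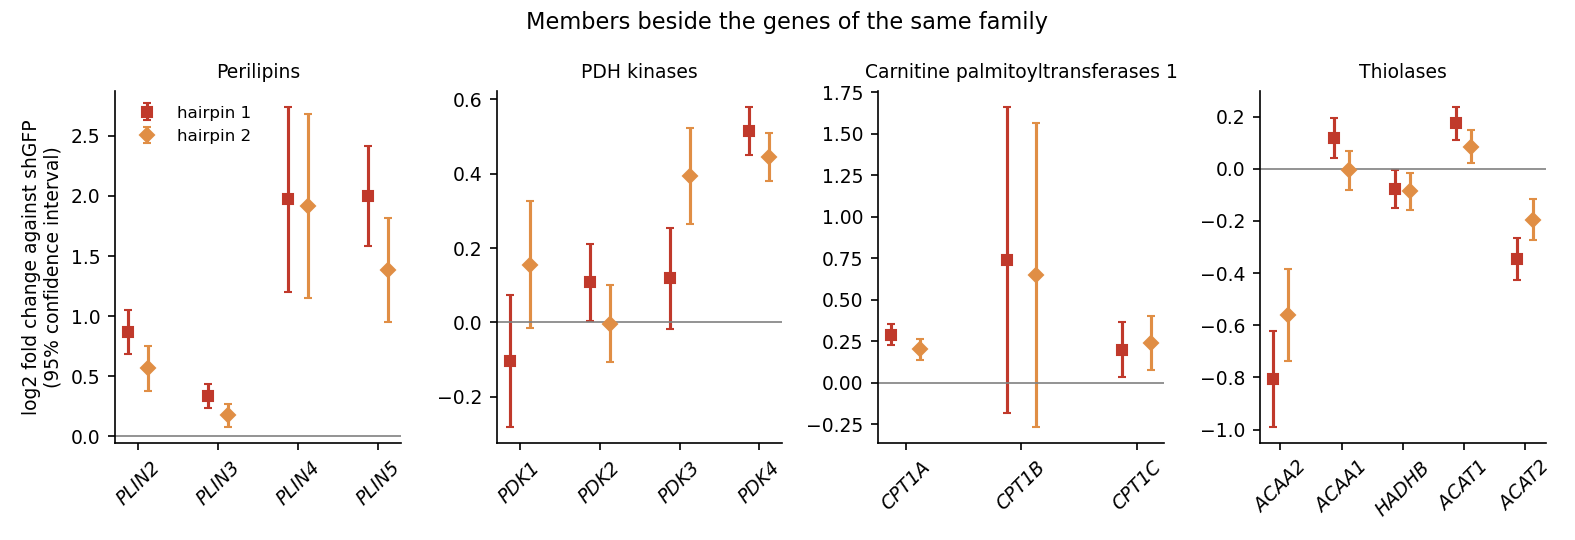
Log2 fold change against shGFP with hairpin 1 (squares) and hairpin 2 (diamonds) for 4 families, with 95% confidence intervals, each panel on its own vertical scale. The 4 perilipins tested lie above 0 with both hairpins, PDK4 lies above PDK1 and PDK2, and ACAA2 is the lowest of the thiolases.

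Other established or proposed PPAR targets were counted in 5 lists of 86 genes, of which 65 were tested. For the mean of both hairpins 17 rose, 21 fell and 27 did not pass, so 58.5% were called beside 45.5% of all genes, and the median log2 fold change was -0.0012. Changes over 1.5-fold were called in 8 of the 65, 4 higher and 4 lower, beside 8.10% of all genes. Higher and lower targets were therefore present in similar number. Over all genes 22.3% were called higher and 23.2% lower for the mean, and 35.7% were called with hairpin 2 alone. These shares stand beside the list counts below.

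Fatty acid uptake, binding and activation had 3 of 10 genes tested higher, 4 lower and 3 not passed (median log2 fold change -0.065). ACSL1, an acyl-CoA synthetase, rose from 10.4 ± 0.651 CPM to 18.8 ± 0.696 for hairpin 1 and 15.2 ± 1.49 for hairpin 2 (log2 fold change 0.69, SE 0.075, adjusted p = 2.13e-10). CD36, chosen after its values were seen, had the largest log2 fold change tested in this list, -1.06 (SE 0.296, adjusted p = 0.00279). It was called lower with hairpin 1 (-0.83, adjusted p = 0.0433) and hairpin 2 (-1.295, adjusted p = 0.0034). Its counts were low, 18 to 29 in shGFP and 9 to 20 in knockdown libraries. ACSL3, the synthetase of lipid droplets and androgen response, fell from 129 ± 3.48 to 77.8 ± 2.46 and 91.3 ± 1.17 CPM (log2 fold change -0.61, SE 0.030, adjusted p = 8.89e-22). FABP5, which carries fatty acids to PPAR delta, rose by 0.26. ACSL4 fell by 0.46, with -0.73 for hairpin 1 (called) and -0.19 for hairpin 2 (not called). DBI, an acyl-CoA binding protein, was called higher with hairpin 1 (0.18) and lower with hairpin 2 (-0.14). The hairpin 2 call of DBI was lost without shGFP replicates 1 or 2 (-0.12 each) or hairpin 2 replicate 2 (-0.10), and after the GC and length correction (-0.029), where the mean passed (0.20). That hairpin 2 call was also lost with the DESeq2 Wald test (adjusted p = 0.0843). The edgeR test lost it without the low-count filter (adjusted p = 0.0685) and on the compared groups alone (adjusted p = 0.0518).

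Mitochondrial oxidation had 2 of 19 genes tested higher, 7 lower and 10 not passed (median -0.056). That is 47.4% called, near the 45.5% of all genes. All changes called were under 1.5-fold. DECR1, which handles unsaturated chains, fell by 0.27, ACADM, the medium-chain dehydrogenase, by 0.26 and ACADL, the long-chain one, by 0.39. HADHA, the trifunctional protein alpha subunit, rose by 0.12, with 0.21 for hairpin 1 (called) and 0.035 for hairpin 2 (not called). Of 13 peroxisomal and microsomal genes 3 rose, 4 fell and 6 were not called (median -0.025). CRAT, carnitine acetyltransferase, rose by 0.39 and catalase (CAT) by 0.23, while SCP2, a sterol carrier and thiolase, fell by 0.30. Without shGFP replicate 3 this list had 3 higher and 1 lower, and after the GC and length correction 4 higher and 2 lower. CROT, a peroxisomal carnitine transferase, was called higher with hairpin 1 (0.17) and lower with hairpin 2 (-0.22). The first call was lost without shGFP replicate 1 (0.13) or hairpin 1 replicate 3 (0.15) and the second after that correction (-0.13).

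Lipid droplet and lipolysis genes had 7 of 10 tested higher, 1 lower and 2 not passed (median 0.22). With hairpin 2 alone 4 were higher and 1 lower, and after the GC and length correction 5 were higher and 1 lower for the mean of both. They include PLIN5, PLIN4 and PLIN3, given above, and PNPLA2, adipose triglyceride lipase. PNPLA2 rose by 0.20, a call lost after the GC and length correction (0.022), and was not called with hairpin 2 alone (0.091). Of 13 ketogenesis, secreted and fuel genes 2 rose, 5 fell and 6 were not called (median -0.072). TXNIP, a glucose-responsive arrestin, fell by 0.23. The hepatocyte marker ALB fell as well (log2 fold change -2.15), and its part in the changes of this list was not tested.

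PPAR partners changed by less than 1.5-fold in every call. RXRs and coactivators had 5 of 16 tested higher, 6 lower and 5 not passed (median -0.063), or 2 higher and 6 lower after the GC and length correction. RXRA, the main partner of PPARs on DNA, rose by 0.27 for the mean of both hairpins, with 0.50 for hairpin 1 (called) and 0.042 for hairpin 2 (not called), a difference that passed (0.46 on the log2 scale between hairpins). CITED2 fell by 0.15 for the mean, but its level was 410 CPM in shGFP, 413 with hairpin 1 and 331 with hairpin 2. CREBBP, an acetyltransferase, rose by 0.16, a call lost after that correction (0.024). CHD9 is itself on this list. RXRB was listed at 0 in every library, as was the corepressor subunit GPS2. Among corepressors 5 of 7 tested rose and 2 fell (median 0.12), against 3 higher and 1 lower with hairpin 2 alone, and 4 higher and 1 lower after that correction. NCOR1 rose by 0.13 and SIRT1, a deacetylase, fell by 0.29. TBL1X rose by 0.13 for the mean, with 84.3 CPM in shGFP, 97.7 with hairpin 1 and 87.3 with hairpin 2.

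**Figure D5:**
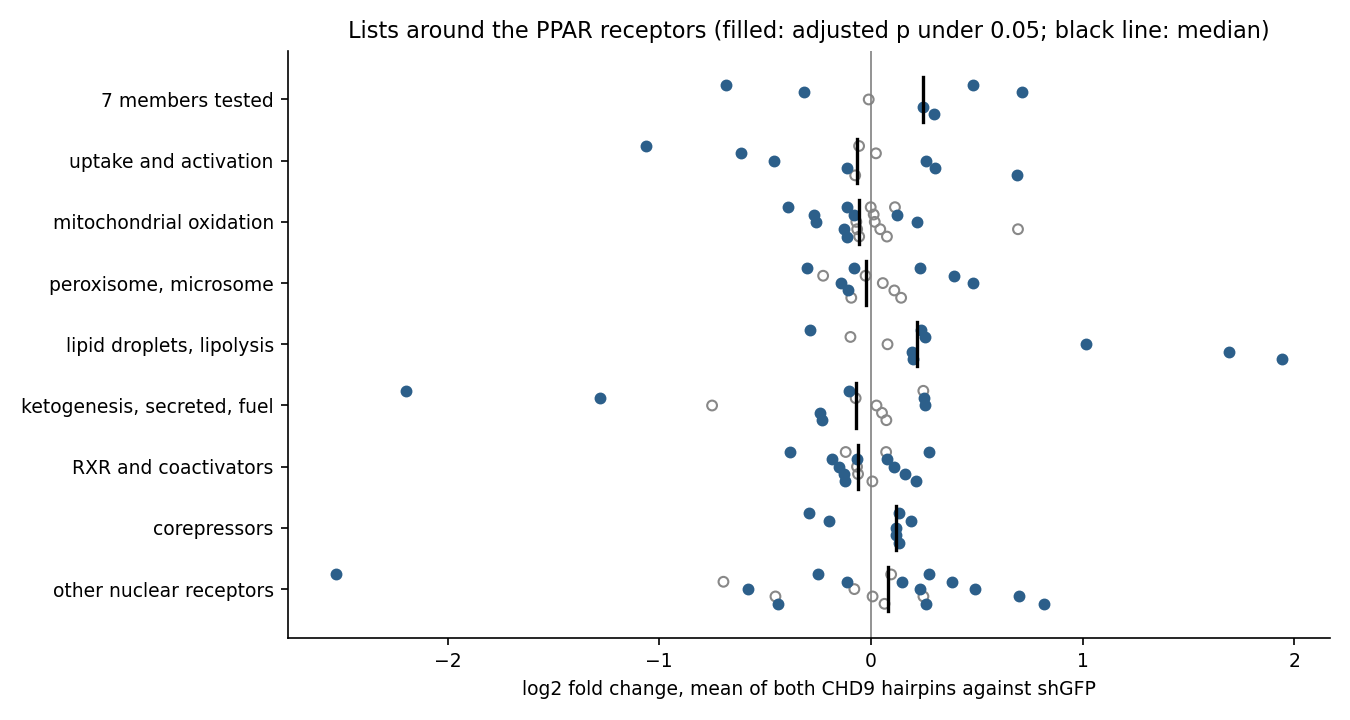
Log2 fold change for the mean of both hairpins against shGFP (horizontal axis) of the genes tested in each list, where a filled point is a gene with an adjusted p under 0.05, an open point one without, and a black line the median. Lipid droplet genes lie mostly right of 0, with PLIN4 and PLIN5 farthest.

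The patterns closest to PLIN2 and ACAA2, the members called with a log2 change of 0.5 or more, were sought among 9783 genes of at least 5 CPM, by the root mean square difference in log2 CPM over the 9 libraries after centring on shGFP. Closest to PLIN2 were HAS3 (0.094), ADAMTSL5 (0.11) and TSPAN9 (0.12), against a median of 0.64 over all genes compared. Closest to ACAA2 were SAGE1 (0.066), SECISBP2L (0.077) and HLA-C (0.092, whose reads may be shared with related HLA genes), against a median of 0.57.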

How the data were processed

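Per the labels' protocols, 9 strand-specific libraries were made from polyA RNA. Trim Galore, STAR, DESeq2 and the build hg38 are named in the submitters' processing notes. Which counter, strand setting and annotation release produced the table is not given in the sources used here, nor how it treated reads shared between genes. The authors deposited raw counts, 1 column a library, in whole numbers.

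Genes were kept by filterByExpr (minimum count 10) of edgeR 4.0.16 in R 4.3.3, scaled by TMM and fitted with the quasi-likelihood method, using 1 coefficient for each of the 3 groups. Benjamini-Hochberg adjustment was over all 16855 genes, and every adjusted p is from this test unless another is named. Confidence intervals are at 95%. Symbols were matched for 60704 of 67071 identifiers, and coordinates and exon lengths are from GENCODE 29 on GRCh38. Promoters are from the RefSeq table.

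Members and gene lists were chosen with earlier results of these data known. Named genes are the members, CHD9, the 4 genes of each list with the smallest p for the mean of both hairpins, and list genes called in opposite directions with the hairpins. Further genes complete the families, and CD36 and ESRRG were added after their values were seen. Some named genes are not reported here, but stay in the counts. Alternatives were DESeq2 1.42.0 size factors or Wald test, voom with limma 3.58.1, other filters, the compared groups alone, a replicate block, offsets for GC content and transcript length, and leaving out each library.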

Additional observations from a re-analysis of the deposited data

Results flagged for a closer look

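A test of the difference between the effects of the hairpins passed for 5 of the 7 members tested (edgeR, hairpin 1 minus hairpin 2, Benjamini-Hochberg adjusted). PLIN2 differed by 0.30 on the log2 scale and PPARA by 0.26, both higher with hairpin 1. PPARD differed by 0.18, although neither hairpin passed against shGFP. CPT1A differed by 0.087 and ACAA2 by -0.25. PPARA alone passed this test under every alternative tried.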

How the results depend on the processing

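PDK4, CPT1A, PLIN2, ACAA2 and ANGPTL4 kept direction and call against shGFP, for each hairpin and their mean, under all alternatives. The GC and length correction moved PDK4 to 0.63 from 0.48 for the mean and ANGPTL4 to -0.49 from -0.30 with hairpin 1. PPARA kept direction and call for hairpin 1 and the mean, and with hairpin 2 stayed above the threshold (adjusted p 0.0531 to 0.215). Members called remained 6 to 7 for the mean, 6 for hairpin 1 and 5 to 6 for hairpin 2. Between the hairpins 3 of 7 were called with the DESeq2 Wald test, without a low-count filter and after the GC and length correction. With voom 4 were called, and 3 to 5 when a library was left out. Signs turned, without a call, for PPARD in the mean without shGFP replicate 3 (0.0073), hairpin 1 replicate 1 (0.00091) or hairpin 2 replicate 2 (0.020), within a range of -0.031 to 0.020 when a library was left out. With the GC and length correction they also turned without a call for PPARD with hairpin 1 (-0.075) and ANGPTL4 between the hairpins (-0.044). Under that correction CROT turned to a called rise in the mean (0.11, adjusted p = 0.0491). Without shGFP replicate 3 the means of DBI (-0.0093, range -0.0093 to 0.045) and CROT (0.020, range -0.069 to 0.020) turned. The cause was not tested. CHD9 was lost with hairpin 2 without shGFP replicate 3 (-0.20, adjusted p = 0.0542) and between hairpins after that correction (-0.18, adjusted p = 0.0503). Genes called for the mean of both hairpins ranged from 6625 to 7669, against 7675. The replicate block gave 7669 and changed no call of a member. Same-numbered libraries did not deviate together (correlations of -0.020 to 0.040, and 5 of 18 closest matches to their own number). These values cannot show whether same-numbered libraries were prepared together. Fits on the compared groups alone do not apply to the mean, which uses all groups. Low counts limit PPARG, PLIN1, PLIN4, CPT1B and CD36.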

Other observations

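Other nuclear receptors for lipids and hormones were also counted. Of 20 tested, 8 rose, 5 fell and 7 did not pass for the mean of both hairpins (edgeR, Benjamini-Hochberg adjusted p under 0.05), with a median log2 fold change of 0.080. That is 65% called, beside 45.5% of all genes tested. ESRRG, an estrogen-related receptor chosen after its values were seen, had the largest log2 fold change of the 20 tested, -2.53 (SE 0.416, adjusted p = 2.08e-06), on 10 to 26 counts in shGFP and 1 to 8 in knockdown libraries. THRA, a thyroid hormone receptor, had 36.8 ± 1.64 CPM in shGFP and rose to 56.9 ± 1.17 (hairpin 1) and 47.1 ± 1.10 (hairpin 2), each a mean ± SD of 3 libraries. ESRRA, which drives genes of mitochondrial metabolism, rose by 0.27 on the log2 scale, from 227 ± 3.51 to 281 ± 4.47 and 267 ± 4.12 CPM. NR3C1, the glucocorticoid receptor, fell by 0.58, from 25.6 ± 0.631 to 16.7 ± 1.51 and 17.5 ± 2.01 CPM. The liver X receptor NR1H3 did not pass (log2 fold change 0.0077).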
